A study of Mus musculus with 2 samples.

Results

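Solute carriers are membrane proteins that move amino acids, sugars, ions, metals, vitamins and metabolites across the cell surface and the membranes of organelles. The genes described here carry a symbol of Slc followed by a family number. They were chosen by their symbol and by a measured value, at least 50 reads summed over both libraries, and not by the difference between the libraries. Slc2a1, Slc7a11, Slc11a2 and Slc40a1 were set apart by the choice of members. Among the 14694 genes counted, 278 carry such a symbol, and 179 were members. A further 96 lay under the read minimum, 65 of them with fewer than 10 reads. Just inside the minimum were Slc7a7 with 51 reads and Slc9a7 with 52, and just outside it Slc6a4 with 47 and Slc39a8 with 43.

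RNA labelled as from mouse lung fibroblasts was sequenced after removal of ribosomal RNA, in 1 library labelled IR and 1 labelled NC. The labels give no strain, age, dose, time or treatment and do not spell out IR or NC, so every direction is that of the library labelled IR against the library labelled NC. The study as a whole concerns rosmarinic acid, lung fibrosis after radiation, glycolysis and exosomes from lung epithelial cells, but neither library's labels name rosmarinic acid or exosomes. The protocol describes spinning and filtering of culture supernatant, and whether cells or vesicles gave the RNA is not stated. With 1 library in each group no difference has a replicate check, no p-value was computed, and all intervals cover counting error only.

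Depth was 35219511 reads for IR and 36084512 for NC, and 10921 genes had the 50 reads needed for a comparison. Of 9 fibroblast markers looked up, the 7 found gave 2856 CPM (read counts scaled to library size) for IR against 2880 for NC. For the others, Thy1 and Lum, no counts were found in either library. The near-equal sum covers markers that differ in opposite directions: Vim had 76565 and 66290 reads, Col1a2 18761 and 32428, Col1a1 273 and 688, and Pdgfra 1869 and 2598. Of the alveolar epithelial markers, which came to 740.2 and 648 CPM almost wholly through Pdpn and Abca3, Sftpc had 0 and 2 reads, and the carrier Slc34a2, a marker of alveolar type II cells, 1 and 0. The leukocyte marker Ptprc had 4 and 0 reads, and the macrophage and leukocyte list summed to 124 and 130 CPM, from Cd68, Cd14 and Lyz2. Here too the markers differed in opposite directions: Cd68 had 2903 and 2188 reads, Cd14 1257 and 2287, and Lyz2 164 and 261. The mesothelial list gave 97.8 CPM for IR against 197 for NC, nearly all from Msln. Whether such cells contributed to any carrier difference was not tested. In bulk RNA, fewer cells of a type and less RNA per cell cannot be told apart.

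Carriers work as coupled sets. At the plasma membrane some use the sodium gradient to concentrate a substrate, others exchange one solute for another, and a few need a partner protein to reach the surface. Mitochondrial carriers of the Slc25 family pass adenine nucleotides, phosphate, citrate, malate and cofactors through the inner membrane, and Slc35 carriers supply the Golgi apparatus and endoplasmic reticulum with the nucleotide sugars that glycosylation consumes. Fibroblasts that deposit matrix draw on all of these for collagen synthesis, proteoglycan sulphation and energy supply.

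Together the members took 1.05% of all reads for IR and 1.06% for NC. Per kb of exon sequence the most abundant was Slc25a5, an ADP/ATP carrier of the inner mitochondrial membrane, with 318 CPM per kb in IR and 286 in NC, although 33.8% of its 50-base words occur in other genes. It was followed by the zinc importer Slc39a1 (215 CPM per kb in both, with 21.8% of its words shared) and the mitochondrial glutathione carrier Slc25a39 (198 in IR and 176 in NC). Slc25a4, the second ADP/ATP carrier, came next at 128 and 150 CPM per kb. At the plasma membrane the pair Slc7a5 and Slc3a2 led the amino acid carriers. The level of the median member was 3.80 CPM per kb, against 4.77 for all compared genes, and the lowest, the glutamate carrier Slc1a2, reached 0.0901 as the mean of both libraries. Other abundant members were the heme carrier Slc48a1 at 87.7 and 85.8 CPM per kb and Slc1a5 at 56.8 and 77.7.

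**Figure D1:**
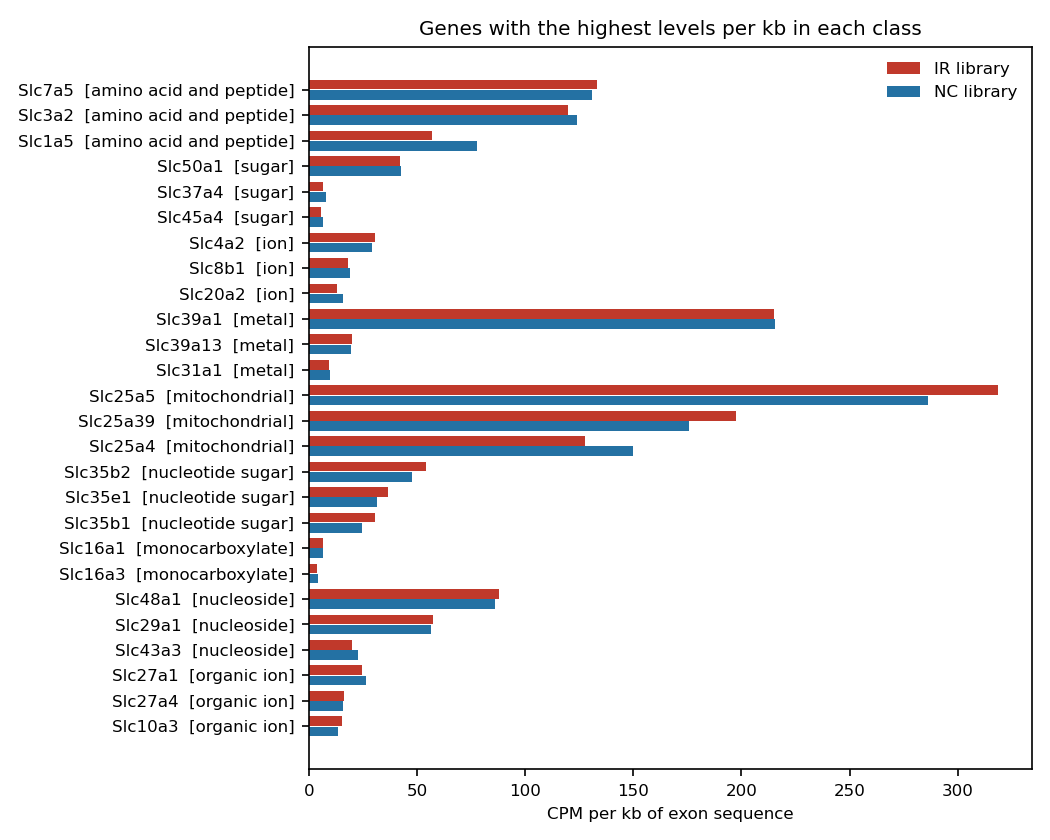
Levels of 26 genes, the most abundant of the carrier classes, in CPM per kb of exon sequence (horizontal axis), with a red bar for the IR library and a blue bar for the NC library. Slc25a5 reached 318 and 286 CPM per kb, Slc39a1 215 in both, and no monocarboxylate carrier passed 6.68.

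The carriers differed little between the libraries. A gene was called when its log2 ratio of IR over NC reached the stated fold and its counting interval excluded a ratio of 1. At 2-fold, 3 members were higher in IR (1.68% of them, against 1.6% of all compared genes) and 3 lower (1.68%, against 1.82%). At 1.5-fold, 13 were higher (7.26%, against 6.09%) and 11 lower (6.15%, against 6.9%). These shares lie near the background and are no result about the carriers as a group. The median log2 ratio was 0.01 (interval over members -0.05 to 0.05), against -0.0069 over all compared genes, and 155 of 179 members lay within 1.5-fold. Of the 24 members called at 1.5-fold, 14 came from the 35 members with fewer than 200 reads (40%, against 34.8% of all compared genes with so few reads), and none from the 38 with at least 5000 (against 3.81% of all compared genes with as many).

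**Figure D2:**
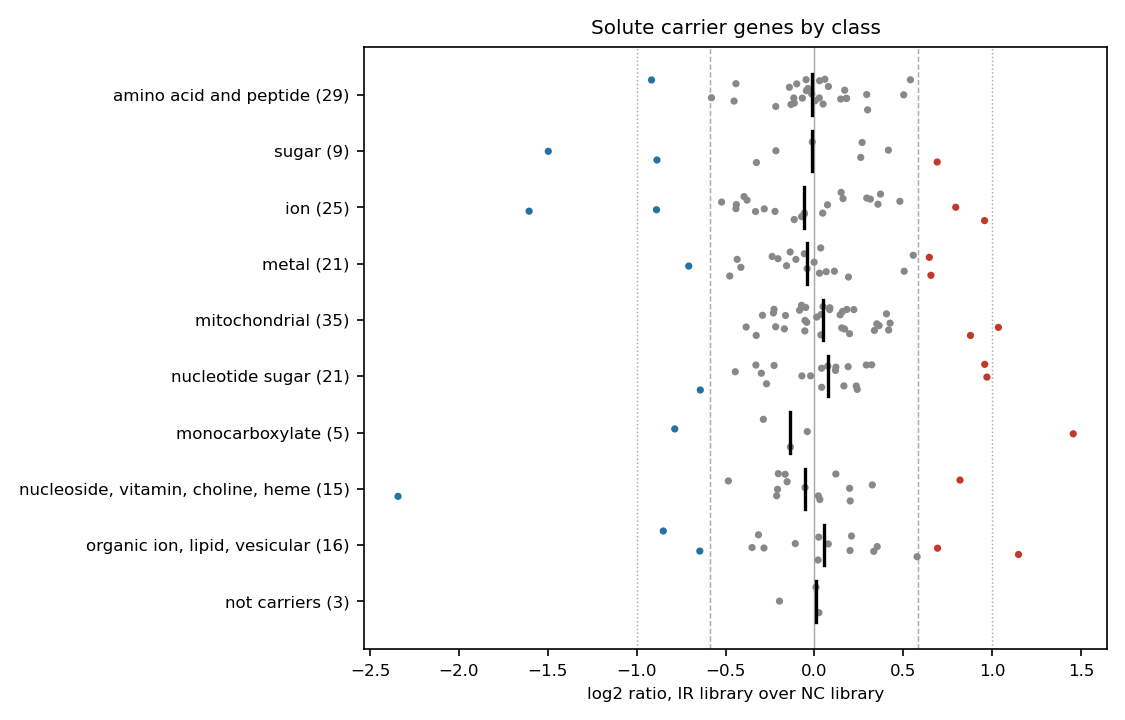
Log2 ratio of IR over NC (horizontal axis) for the 179 members, 1 point each, in rows by carrier class with the number of genes in brackets. Black bars are class medians, dashed lines mark 1.5-fold and dotted lines 2-fold, and red and blue points are genes called at 1.5-fold higher or lower. The class medians lie between -0.13 (monocarboxylate) and 0.08 (nucleotide sugar).

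The members called at 2-fold came from 6 different families, and all but Slc25a47 had fewer than 200 reads. Slc16a6, a member of the monocarboxylate family, gave 77 reads for IR against 28 for NC (log2 ratio 1.46, 95% counting interval 0.88 to 2.20), although other genes overlap 23.5% of its exons. Slc22a17, a receptor for the iron-binding protein lipocalin-2, had 134 and 62 reads (1.15, interval 0.73 to 1.63). Slc25a47, a mitochondrial carrier known mainly from liver, had 216 and 109 reads (1.04, interval 0.71 to 1.39). Centring on transcript length and GC content put Slc25a47 at 0.98, under the 2-fold limit. On the lower side, the concentrative nucleoside carrier Slc28a2 had 9 and 56 reads (-2.34, interval -3.78 to -1.55), with 35.4% of its words shared with other genes. Slc12a8, of the cation-chloride family, had 16 and 55 reads (-1.61, interval -2.62 to -0.89). Slc2a4, the insulin-responsive glucose carrier GLUT4, had 14 and 45 reads (-1.50, interval -2.60 to -0.73). All 3 lower members stood at or under 1.54 CPM in both libraries. They reached the minimum of 50 summed reads mainly through NC, the library in which they were higher. Their IR reads alone (9, 16 and 14) lay under that minimum. On the higher side, Slc16a6 passed through IR, and its NC reads alone (28) lay under the minimum. The 3 lower calls and that of Slc16a6 are therefore not independent of the read minimum.

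Amino acid and peptide carriers differed little, with 28 of 29 within 1.5-fold. Of 29 members, 7 had a counting interval above a ratio of 1 (24.1%, against 31.2% of all compared genes) and 9 below (31%, against 32.4%), and the median log2 ratio was -0.01 (interval over members -0.11 to 0.08). The heterodimer that brings leucine and other large neutral amino acids into cells is made of the light chain Slc7a5 (LAT1) and the heavy chain Slc3a2 (CD98). Slc7a5 gave 17245 reads for IR against 17649 for NC (log2 ratio 0.03, interval -0.0013 to 0.06), and Slc3a2 14773 and 15935 (-0.05, interval -0.08 to -0.01). Per kb, Slc7a5 stood at 133 and 131 CPM and Slc3a2 at 120.0 and 124, so both chains were present at like levels in each library.

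The glutamine carriers diverged. Slc1a5 (ASCT2), a sodium-dependent exchanger of glutamine and small neutral amino acids on chromosome 7 (16781340 to 16798274, GRCm38), had 8266 reads in IR and 11809 in NC, or 237 CPM (95% Poisson interval 232 to 242) against 324 CPM (318 to 330). Its log2 ratio was -0.45 (interval -0.49 to -0.41), the lowest among the 11 amino acid carriers with at least 5000 reads. Slc38a7, a lysosomal glutamine exporter, was also lower (6026 and 7316 reads, -0.22). Slc38a1, a sodium-coupled glutamine importer, was higher in IR, at 2576 and 2193 reads (0.29, interval 0.21 to 0.38), and its neighbour on chromosome 15, Slc38a2, did not differ beyond counting error (3989 and 4086 reads, 0.03, interval -0.04 to 0.09). The difference in log2 ratio between Slc1a5 and Slc7a5 was -0.48 ( interval -0.53 to -0.43).

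The arginine and neutral amino acid carriers parted as well. Slc7a1 (CAT1), the main arginine and lysine importer, had 5749 and 4878 reads (0.30, interval 0.24 to 0.35). Slc6a17, a neutral amino acid carrier best known from synaptic vesicles, had 4155 and 5893 reads (-0.44, interval -0.50 to -0.38). The creatine carrier Slc6a8 had 10062 and 9948 reads (0.08) and the taurine carrier Slc6a6 6046 and 6829 (-0.11). Slc38a6 (129 and 92 reads, 0.54) had the highest ratio of the class, with 22.8% of its words shared, and Slc1a2 (28 and 57 reads, -0.92) the lowest, the only member of the class called at 1.5-fold. The IR reads of Slc1a2 alone lay under the read minimum of 50, so its call is not independent of that minimum.

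**Figure D3:**
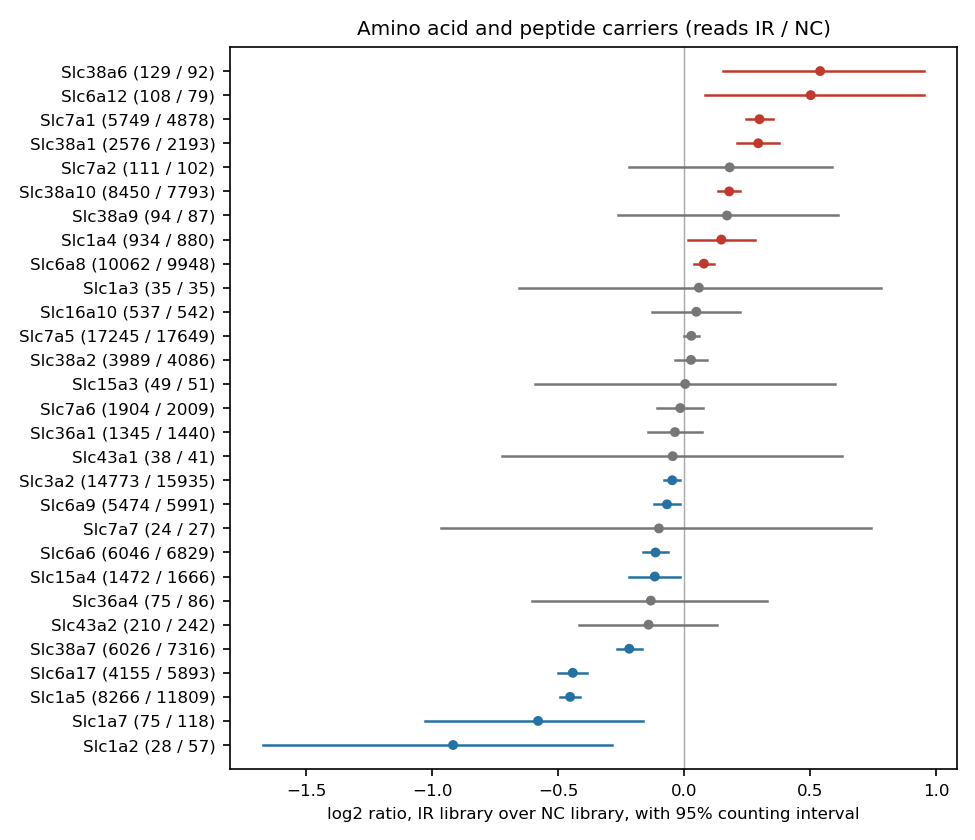
Log2 ratio of IR over NC with its 95% counting interval (horizontal axis) for the 29 amino acid and peptide carriers, labelled with their reads in IR and NC. Red marks an interval above 0, blue below 0 and grey across 0. Slc1a5 (-0.45) and Slc6a17 (-0.44) lie apart from the other abundant carriers.

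ATF4, the transcription factor of the amino acid response, is known to act on several of these genes through the CARE motif. Of the list of 10 such carriers 9 were compared, 3 with an interval above a ratio of 1 and 4 below (31.2% and 32.4% of all compared genes), and the median log2 ratio was 0.03 (from -0.64 to 0.30). The lowest was Slc7a11, the cystine importer set apart above, with 180 and 295 reads. CARE was searched as TGATGNAA on both strands of promoter windows from 250 bases before to 50 after a start site (RefSeq, GRCm38.p6). It was present in 2 of the 6 windows of this list, against 2.14% of the 8177 windows of all compared genes. The window of Slc1a4 (ASCT1, a serine and alanine exchanger with 934 and 880 reads and a log2 ratio of 0.15) is shown because it holds the motif, on the opposite strand. The match begins 4 bases before the start site and runs across it. The window lies on the minus strand at chr11:20332664-20332963, with the match in capitals.
Slc1a4: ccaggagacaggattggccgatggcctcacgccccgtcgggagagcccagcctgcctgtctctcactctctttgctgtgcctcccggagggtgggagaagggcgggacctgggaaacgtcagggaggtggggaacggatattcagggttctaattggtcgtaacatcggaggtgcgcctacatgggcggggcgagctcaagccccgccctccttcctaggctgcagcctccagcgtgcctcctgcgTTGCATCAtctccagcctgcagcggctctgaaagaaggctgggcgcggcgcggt
A match is a description of the letters and not evidence of binding.

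Sugar carriers were spread more widely. Of 9 members, 3 had an interval above a ratio of 1 (33.3%, against 31.2% of all compared genes) and 4 below (44.4%, against 32.4%), with a median of -0.01 (members' interval -0.89 to 0.42). Slc50a1, a sugar carrier of the SWEET family, was the most abundant per kb (42.3 CPM in IR and 42.7 in NC) and had a log2 ratio of -0.01. Slc2a3 (GLUT3), a high-affinity glucose importer, had 465 and 405 reads (0.26, interval 0.07 to 0.46). For the general glucose importer Slc2a1, set apart above, the reads were 11894 and 14990 (-0.27, interval -0.31 to -0.24); per kb, GLUT1 stood at 97.2 and 117 CPM and GLUT3 at 1.84 and 1.53. Slc37a4, which takes glucose-6-phosphate into the endoplasmic reticulum, was lower (629 and 824 reads, -0.33), as was its relative Slc37a2 (67 and 131 reads, -0.89). The myo-inositol carrier Slc5a3 had 298 and 192 reads (0.69, interval 0.43 to 0.97) and was the only sugar class member called higher at 1.5-fold.

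Slc5a3 belongs to a set of 4 carriers that load cells with osmolytes. Of these, 2 had an interval above a ratio of 1, as did 31.2% of all compared genes. These 2 were Slc5a3 and the betaine carrier Slc6a12 (108 and 79 reads, 0.50, interval 0.08 to 0.95). Slc6a6 lay below (-0.11) and Slc38a2 crossed 0, so the osmolyte carriers did not move as 1 set.

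Lactate and pyruvate carriers are the counterpart of glycolysis, which the study names as a subject. Slc16a1 (MCT1), a lactate and pyruvate carrier, had 1003 and 1077 reads (-0.04, interval -0.17 to 0.09). Slc16a3 (MCT4), the lactate exporter of glycolytic cells, had 662 and 844 reads (-0.29, interval -0.44 to -0.14). Both need the chaperone basigin (Bsg) or embigin (Emb) to reach the surface. Bsg was abundant and lower in IR with 90864 and 119651 reads (-0.33, interval -0.35 to -0.32), while Emb was higher with 299 and 132 reads (1.23, interval 0.94 to 1.55). The pyruvate carrier subunits of the inner mitochondrial membrane, Mpc1 (-0.07) and Mpc2 (-0.10), had intervals that crossed 0. Of the 16 genes in the list of lactate, pyruvate and hexose handling, 10 were compared, 2 with an interval above a ratio of 1 and 5 below, beside 31.2% and 32.4% of all compared genes.

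Among mitochondrial carriers more ratios lay above 1 than below, by small amounts and with a median whose interval crossed 0. The family also holds Slc25a17, a cofactor carrier of peroxisomes (1339 and 1086 reads, 0.36). Of 35 Slc25 members, 16 had an interval above a ratio of 1 (45.7%, against 31.2% of all compared genes) and 4 below (11.4%, against 32.4%). The median log2 ratio was 0.05 (interval over members -0.05 to 0.17), and 33 of 35 lay within 1.5-fold. Under the other scalings and after centring on expression or on transcript length and GC content, 16 or 17 intervals lay above and 3 to 5 below. The class as a whole came to 3535 CPM for IR against 3293 for NC.

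The carriers that serve oxidative phosphorylation were among those with small and precise differences. Slc25a3, which imports the phosphate needed for ATP synthesis, gave 24860 reads for IR against 22632 for NC (log2 ratio 0.20, interval 0.17 to 0.22). The ADP/ATP carriers parted: Slc25a5 (ANT2), on chromosome X, had 18285 and 17162 reads (0.15, interval 0.12 to 0.18) and Slc25a4 (ANT1), on chromosome 8, 10476 and 12838 (-0.23, interval -0.27 to -0.19). The difference between their log2 ratios was -0.38 for Slc25a4 minus Slc25a5 (interval -0.43 to -0.34). Per kb, Slc25a4 made up 28.6% of the pair in IR and 34.4% in NC. The shared words of Slc25a5 make its counts uncertain.

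Carriers of the malate-aspartate shuttle, which moves cytosolic reducing power into mitochondria, were all slightly higher. Among all Slc25 members 45.7% had an interval above a ratio of 1, and among all compared genes 31.2%. The aspartate-glutamate carriers Slc25a12 (1621 and 1451 reads, 0.22, interval 0.12 to 0.33) and Slc25a13 (1206 and 1109 reads, 0.18, interval 0.06 to 0.30) and the oxoglutarate-malate carrier Slc25a11 (8086 and 7950 reads, 0.09, interval 0.04 to 0.13) all lay above a ratio of 1. The citrate carrier Slc25a1, which feeds cytosolic acetyl-CoA, had 8281 and 8147 reads (0.09), and the dicarboxylate carrier Slc25a10 had 3284 and 2688 (0.35, interval 0.28 to 0.43). None of these reached 1.5-fold.

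Larger ratios came from carriers of different substrates. Slc25a32, which brings folate and FAD into mitochondria, gave 146 reads for IR against 82 for NC (log2 ratio 0.88, interval 0.49 to 1.30), the second Slc25 gene called at 1.5-fold. The glycine carrier Slc25a38, needed for heme synthesis, had 712 and 556 (0.42). Slc25a25, a calcium-regulated carrier of ATP-magnesium and phosphate, had 2674 and 2078 reads (0.43, interval 0.34 to 0.51), and its paralogs Slc25a24 (0.16, interval -0.02 to 0.34) and Slc25a23 (-0.05, interval -0.16 to 0.06) had intervals that crossed 0. On the lower side, Slc25a30, a relative of the uncoupling proteins, had 693 and 945 (-0.38), the NAD carrier Slc25a51 3526 and 4310 (-0.23, interval -0.29 to -0.16), and the outer membrane protein Slc25a46 221 and 283 (-0.29, interval -0.55 to -0.04). With Slc25a4 these were the 4 members with an interval below a ratio of 1, among 14 members with a ratio below 1.

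**Figure D4:**
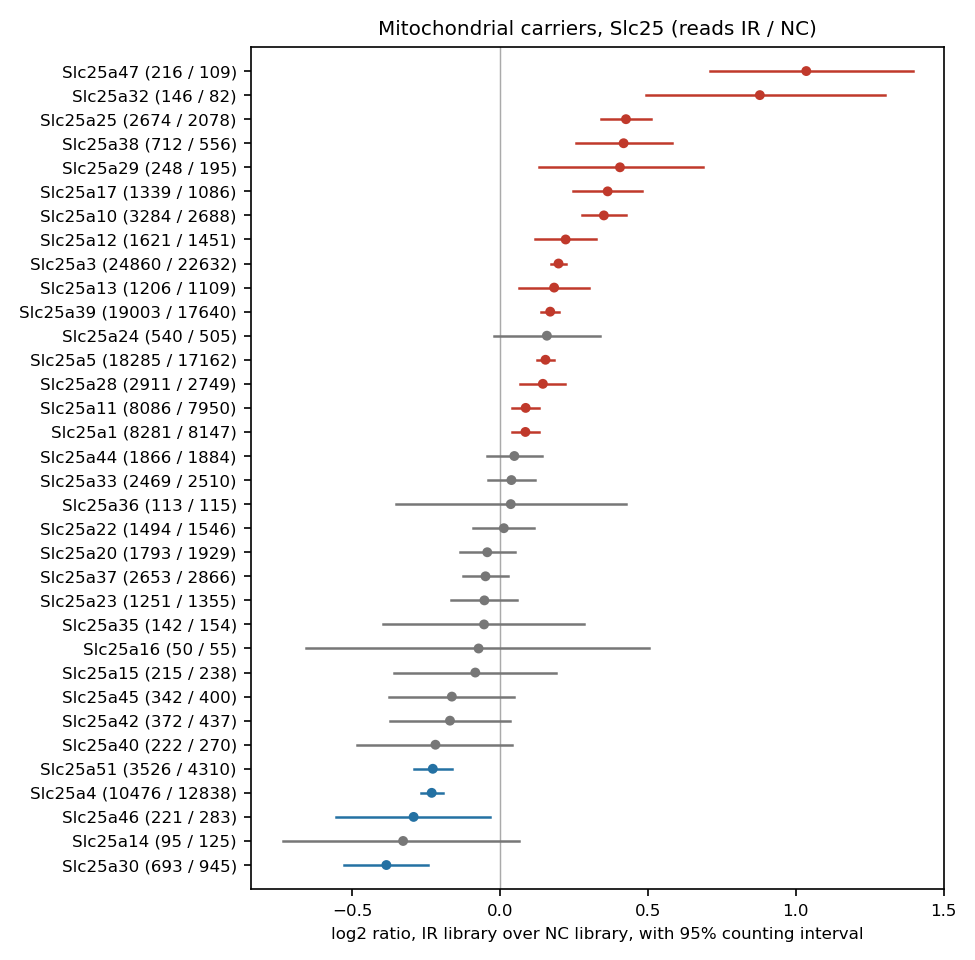
Log2 ratio of IR over NC with its 95% counting interval (horizontal axis) for 34 Slc25 carriers, labelled with their reads in IR and NC. Red marks an interval above 0 (15 genes), blue below 0 (4 genes) and grey across 0.

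Slc25a47 and the basic amino acid carrier Slc25a29, on chromosome 12, are neighbours that point away from each other, and both were higher in IR. Slc25a29 had 248 and 195 reads (0.41, interval 0.13 to 0.69), beside 216 and 109 for Slc25a47. In GENCODE vM21, 2 of the 5 transcripts of Slc25a47 start inside the promoter window of Slc25a29, on the other strand, and neither of them is coding. The 2 coding transcripts start farther away, with 14752 bases between the windows of the genes. The windows of both genes are shown because they differ in base composition. Each CG dinucleotide is in capitals. The Slc25a29 window is at chr12:108835827-108836126 on the minus strand and the Slc25a47 window at chr12:108850879-108851178 on the plus strand (RefSeq, GRCm38.p6).
Slc25a29: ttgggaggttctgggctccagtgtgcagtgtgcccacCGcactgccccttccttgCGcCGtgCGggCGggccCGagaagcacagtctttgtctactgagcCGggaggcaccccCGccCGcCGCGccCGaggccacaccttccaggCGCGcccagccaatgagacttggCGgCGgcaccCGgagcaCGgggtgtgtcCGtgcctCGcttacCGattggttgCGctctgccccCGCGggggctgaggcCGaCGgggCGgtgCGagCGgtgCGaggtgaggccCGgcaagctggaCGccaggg
Slc25a47: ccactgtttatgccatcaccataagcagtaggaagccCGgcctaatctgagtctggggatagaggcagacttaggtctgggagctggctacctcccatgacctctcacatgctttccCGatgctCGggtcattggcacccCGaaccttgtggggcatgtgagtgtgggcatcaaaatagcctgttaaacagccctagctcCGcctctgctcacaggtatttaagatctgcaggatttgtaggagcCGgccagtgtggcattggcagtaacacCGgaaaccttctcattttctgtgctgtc
The Slc25a29 window holds 32 CG dinucleotides and the coding start of Slc25a47 holds 7, against a median of 22 over all compared genes. Which start gave the reads of Slc25a47 cannot be read from gene counts.

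Ion carriers differed in both directions, with counts near the background. Of 25 members, 6 had an interval above a ratio of 1 (24%, against 31.2% of all compared genes) and 10 below (40%, against 32.4%), with a median of -0.06 (members' interval -0.33 to 0.16). All 7 cation-chloride cotransporters of the Slc12 family had ratios below 1, as did 5555 of the 10921 compared genes. The interval lay below 1 as well for 4 of them (57.1%, against 32.4% of all compared genes). That number was 3 with upper-quartile scaling or with centring on transcript length and GC content. The 4 include Slc12a8, which reached the read minimum mainly through NC. Slc12a7 (KCC4), a potassium-chloride exporter, had 1699 and 2308 reads (-0.38, interval -0.47 to -0.29). Its relative Slc12a4 (KCC1) was scarce (25 and 35 reads, -0.40, interval -1.22 to 0.36). The sodium-potassium-chloride importer Slc12a2 (NKCC1) had 230 and 250 reads (-0.06, interval -0.32 to 0.21).

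Exchangers that set cell pH parted. Slc9a5, a sodium-proton exchanger, gave 802 reads for IR against 1138 for NC (log2 ratio -0.44). Slc4a2 (AE2), a chloride-bicarbonate exchanger and the most abundant ion carrier per kb, had 8923 and 8853 (0.07, interval 0.03 to 0.12), with 13.7% exon overlap, while its relative Slc4a3 (AE3) had 935 and 1403 (-0.52, interval -0.64 to -0.40). The volume-regulating kinases also parted, with Wnk1 at 903 and 1235 reads (-0.39) and Stk39 at 576 and 447 (0.43).

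The sodium-phosphate importers Slc20a1 (PiT1) and Slc20a2 (PiT2) differed in opposite directions. Slc20a1 had 3142 and 2535 reads (0.37, interval 0.30 to 0.45), with 13.1% exon overlap, and Slc20a2 had 2824 and 3586 (-0.28, interval -0.35 to -0.21). The difference between their log2 ratios was 0.65 (interval 0.55 to 0.76), and the order per kb turned, from 12.5 against 15.8 CPM in NC to 16.1 against 13.02 CPM in IR. Slc26a2, the sulphate importer that cartilage and other matrix-making cells use for proteoglycans, had 119 and 63 reads (0.96, interval 0.53 to 1.44).

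Metal carriers included a zinc pair that was higher in IR. Slc30a1 (ZnT1), the zinc exporter of the plasma membrane, gave 241 reads for IR against 159 for NC (log2 ratio 0.66, interval 0.37 to 0.96), and the importer Slc39a10 had 208 and 138 (0.65, interval 0.34 to 0.98). Slc30a7, which loads zinc into the Golgi apparatus, had 291 and 206 (0.56, interval 0.30 to 0.83), with 16.01% exon overlap. These were the 3 highest ratios among metal carriers, and the IR levels were low, from 0.750 CPM per kb for Slc30a7 to 1.32 for Slc30a1. The abundant zinc importers hardly differed: Slc39a1 had 17743 and 18549 reads (-0.0017, interval -0.03 to 0.03) and Slc39a13 3394 and 3458 (0.04). Slc39a14, which takes up zinc, iron and manganese, had 2645 and 2418 (0.19, interval 0.11 to 0.27). Over the class, 5 of 21 members had an interval above a ratio of 1 (23.8%, against 31.2% of all compared genes) and 6 below (28.6%, against 32.4%), and the median was -0.04.

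Zinc is known to induce Slc30a1 through metal response elements, and its window is shown for that reason. The core was searched as TGCACNC and TGCGCNC on both strands. The Slc30a1 window (chr1:191906531-191906830, plus strand) holds 2 matches, in capitals, both on the opposite strand.
Slc30a1: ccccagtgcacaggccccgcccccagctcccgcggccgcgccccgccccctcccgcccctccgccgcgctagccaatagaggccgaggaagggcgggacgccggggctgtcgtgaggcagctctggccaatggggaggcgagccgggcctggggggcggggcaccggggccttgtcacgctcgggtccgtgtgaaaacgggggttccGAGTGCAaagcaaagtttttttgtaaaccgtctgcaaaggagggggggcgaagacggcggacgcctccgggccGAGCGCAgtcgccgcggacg
The matches begin 43 bases before and 30 after the start site. The letters are common, since 37.3% of the 8177 windows of all compared genes and 50% of the 18 metal carrier windows hold at least 1 match. The Slc39a10 window held none, but its start site lies 428 bases from the nearest coding transcript start, against 14 for Slc30a1. It therefore does not cover that start.

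Of the 3 magnesium carriers of the Slc41 family, 2 had an interval below a ratio of 1, as did 32.4% of all compared genes. Slc41a3 had 458 and 782 reads (-0.71, interval -0.88 to -0.54), the only metal carrier called lower at 1.5-fold, and Slc41a1 had 1253 and 1769 (-0.43, interval -0.54 to -0.33). Slc41a2 had 440 and 494 (-0.10, interval -0.29 to 0.08). The zinc carriers Slc39a9 (630 and 916 reads, -0.48) and Slc30a9 (497 and 692 reads, -0.41) were also lower. The copper importer Slc31a1 (-0.06) had an interval that crossed 0, and the iron carrier Slc11a2, set apart above, a ratio of -0.07 (4672 and 5118 reads).

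**Figure D5:**
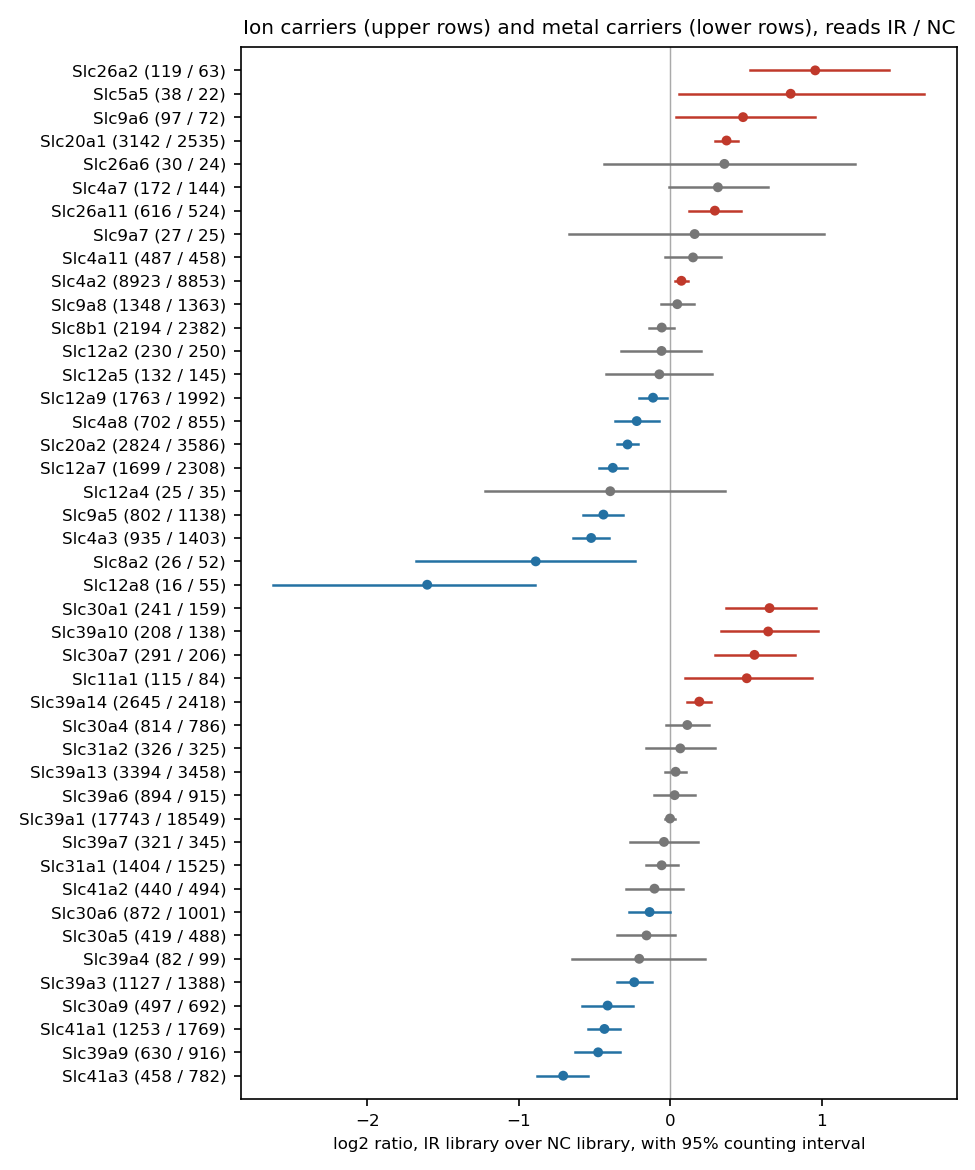
Log2 ratio of IR over NC with its 95% counting interval (horizontal axis) for 23 ion carriers (upper rows) and the 21 metal carriers (lower rows), labelled with their reads in IR and NC. Red marks an interval above 0, blue below 0 and grey across 0. The phosphate importers Slc20a1 (0.37) and Slc20a2 (-0.28) lie on opposite sides.

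The class of nucleotide sugar carriers, formed by family from the Slc35 members and Slc33a1, had the highest class median, 0.08 (interval over members -0.23 to 0.24). It also holds carriers of other substrates, some of them named below. Of 21 members, 8 had an interval above a ratio of 1 (38.1%, against 31.2% of all compared genes) and 5 below (23.8%, against 32.4%). Slc35b2, which imports the sulphate donor PAPS into the Golgi apparatus, was the most abundant per kb and had 5862 and 5367 reads (0.19, interval 0.14 to 0.24). Slc35b1, the ATP importer of the endoplasmic reticulum, had 2382 and 1989 (0.32, interval 0.24 to 0.41). The largest ratios came from scarce genes, the UDP-N-acetylglucosamine carrier Slc35a3 (80 and 42 reads, 0.96) and its relative Slc35a5 (122 and 64 reads, 0.97). The NC reads of Slc35a3 alone lay under the read minimum of 50. Slc35e3 had 532 and 868 reads (-0.64, interval -0.80 to -0.49), with 19.2% of its words shared, and the acetyl-CoA importer Slc33a1 327 and 412 (-0.27), with 32.02% exon overlap.

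Carriers of nucleosides, vitamins, choline and heme split evenly, with 4 of 15 intervals above a ratio of 1 and 4 below (26.7% each, against 31.2% and 32.4% of all compared genes). The heme carrier Slc48a1 (8412 and 8600 reads, 0.03) and the equilibrative nucleoside carrier Slc29a1 (8045 and 8272 reads, 0.02), the most abundant per kb, had intervals that crossed 0. The folate importer of the plasma membrane, Slc19a1, had 2837 and 2363 reads (0.33, interval 0.25 to 0.41), in the same direction as the mitochondrial folate carrier Slc25a32. The proton-coupled folate importer Slc46a1 had 203 and 236 (-0.15, interval -0.43 to 0.12). Of the riboflavin importers, Slc52a3 had 184 and 108 reads (0.82, interval 0.48 to 1.19) and the more abundant Slc52a2 2251 and 2049 (0.20, interval 0.11 to 0.29). Slc43a3, a purine base carrier, was lower (3086 and 3721 reads, -0.21), as was the lysosomal nucleoside carrier Slc29a3 (198 and 290 reads, -0.48).

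The remaining 16 carriers of organic ions, lipids and vesicle contents had 7 intervals above a ratio of 1 (43.8%, against 31.2% of all compared genes) and 6 below (37.5%, against 32.4%). The fatty acid carriers were the most abundant, with 4964 and 5585 reads for Slc27a1 (-0.11, interval -0.16 to -0.05) and 2475 and 2541 for Slc27a4 (0.02, interval -0.06 to 0.10). On chromosome 11 the neighbouring genes of organic cation carriers parted: Slc22a4, an ergothioneine importer, had 91 and 58 reads (0.69, interval 0.22 to 1.21) and Slc22a5, the carnitine importer, 363 and 472 (-0.31, interval -0.52 to -0.12). Slc22a21, which lies between them, had 83 and 82 reads (0.08). As much as 26.3% of the words of Slc22a5 and 22.0% of those of Slc22a21 occur in other genes. The vesicular glutamate carrier Slc17a7 had 112 and 184 reads (-0.64). The 3 genes named after a carrier but not carriers themselves, Slc9a3r1, Slc9a3r2 and Slc4a1ap, had ratios of 0.0087, 0.03 and -0.20.

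Among 26 compared genes outside the members, partner proteins and other carriers, 5 had an interval above a ratio of 1 and 11 below, where 31.2% and 32.4% of all compared genes did. Of these 26, Emb was called at 2-fold. The mitochondrial calcium channel Mcu had 1071 and 1447 reads (-0.37, interval -0.49 to -0.26) and the Golgi manganese and calcium transporter Tmem165 4353 and 5587 (-0.30). The lysosomal cystine exporter Ctns was lower too, with 782 and 950 reads (-0.22).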

How the data were processed

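The submitters' processing notes name HTSeq 0.9.1, cutadapt 1.9.3, edgeR and HISAT2, and the build mm10. The annotation release and strand setting are not given in the sources used here. Values used were the raw counts for each gene as deposited, per the file headers, and 2 further value columns were not used.

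Library sizes were scaled with TMM factors (edgeR 4.0.16, R 4.3.3), 0.991 for IR and 1.01 for NC. Log2 ratios of IR over NC used a prior count of 2, over the 10921 genes with at least 50 reads in both libraries together. Intervals are exact at 95% (Clopper-Pearson for the split of reads, Poisson for CPM, Fisher's conditional odds ratio for differences between genes). The floor of 3 counts is 0.086 CPM in IR and 0.0824 CPM in NC. Reads from PCR are not independent molecules, so intervals and floors cover counting error only. The interval of a median comes from order statistics over the members and treats them as independent.

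Exon lengths (the union over transcripts), positions, exon overlaps and shared 50-base words were taken from GENCODE vM21 (GRCm38), where 14584 of 14694 identifiers matched. Of 179 members, 14 overlap other genes over at least 10% of their exon sequence and 12 share at least 10% of their words. Of the members, 137 matched a RefSeq promoter window. The window whose start lies nearest to a protein-coding transcript was used.

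The rule for names took the genes called at 2-fold, the 3 highest and 3 lowest ratios of each class among genes with at least 200 reads, the 3 most abundant per kb, 4 lists across classes and the genes set apart. Other genes were named after their values were seen. The members and lists were chosen with earlier results of these data known. The procedure was run on simulated counts with counting error only, scaled by library totals. The differences set there were larger than 2-fold and lay in genes with at least 200 reads. The run therefore does not bear on smaller differences or scarcer genes. Alternatives covered scaling, prior counts, filters, fold rules, trends and overlap, with DESeq2 1.42.0 for 1 of the scalings. Some genes are counted in the class totals but are not reported here by name and not drawn in the plots that name genes. Other features of the table were not analysed here.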

Additional observations from a re-analysis of the deposited data

How the results depend on the processing

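No paired analysis was possible because each group has 1 library, so the groups share only 1 replicate number. The 2-fold counts of 3 higher and 3 lower members stayed within 1.5 times under the other scalings, prior counts, trends and the removal of genes with exon overlap or, chosen after seeing the data, shared words. Without a filter on low counts they were 8 and 11 of 274 (584 and 606 of all 14694 genes), with at least 200 reads 1 and 0 of 144 (73 and 71 of 9379), and with a 4-fold rule 0 and 1 of 179 (10 and 14 of 10921). Centring on transcript length and GC content took Slc25a47 under 2-fold (0.98). The counts under the other filters and the 4-fold rule follow from the numbers of genes admitted and the fold asked for. All 119 recomputed medians of the members and classes stayed inside the interval of the reported median. This is a weak check for small classes, whose intervals are wide. For the 5 monocarboxylate carriers the interval is the whole range of members, -0.79 to 1.46. Of the 119 medians, 13 changed sign, in the amino acid carriers, the sugar carriers (to 0.26 without a filter), all members, the monocarboxylate carriers (-0.13 as a median, 0.04 as a mean) and the vitamin and organic ion classes. Of 93 named genes 12 changed sign under at least 1 alternative, none with a reported log2 ratio beyond 0.07 in size, and none of those called did. Scaling moved the median of all genes between -0.03 and 0.02. Depth limited the scarce members: at 25 and 35 reads the interval of Slc12a4 ran from -1.22 to 0.36. Log2 ratios declined with exon length over all genes (Spearman's rho across genes -0.10) and less so over the members (-0.03).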
